A study of Mus musculus with 8 samples.

Results

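The cytochrome P450 genes and the genes of 3 families of conjugating enzymes were followed in the small intestine of mouse embryos with and without the transcription factor Rfx6. Members were chosen by the gene names printed on the array: Cyp, Ugt1a, Ugt2b, Sult, Gsta, Gstm, Gstp, Gstt or Gsto, each followed by a number. This gave 143 genes, of which 95 were tested because a probe passed the scanner software's background test on the 4 arrays of either group, among 23288 genes tested on the whole array. The other 48 members were left untested: 30 were above background on 0 of 8 arrays, 11 on 1 array and 7 on 2 to 6 arrays. Cyp4a12a and Cyp2b19 came nearest to the filter, being above background on 3 control and 3 Rfx6-/- arrays and on 2 control and 3 Rfx6-/- arrays. Of the tested members, 85 were above background on all 8 arrays, 9 entered only through the Rfx6-/- group and 1 only through the control group.

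The control group was 4 samples of Rfx6+/+ small intestine and the other group 4 samples of Rfx6-/- small intestine, all at embryonic stage E18.5 and otherwise untreated as far as the labels say. Heterozygous Rfx6+/- mice had been made by crossing carriers of a floxed allele (Rfx6f/+) with CMV-Cre mice and were then intercrossed. CMV-Cre is a deleter transgene active in most cells, so the mutants lacked the gene in the whole body and not in the intestine alone. Sample labels do not say which embryos shared a litter, and p-values measure the spread between these samples.

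Cytochrome P450 enzymes are haem proteins that insert oxygen into drugs, steroids, fatty acids and other lipids, taking electrons from reductases in the endoplasmic reticulum or from ferredoxin in mitochondria. Conjugating enzymes then add a glucuronic acid (Ugt), a sulfate (Sult) or glutathione (Gst) to make the product more soluble, and export pumps carry it out of the cell. In the intestine the absorptive enterocytes of the villus carry much of this system, as a first barrier to compounds taken up with food, and several of its genes answer to ligand-activated transcription factors such as Ahr, Nr1i2 and Nr1i3 and to the oxidative stress factor Nfe2l2.

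Expression was read on single-colour Agilent arrays, and a level below is log2 of the background-subtracted signal minus the 75th percentile of its array. A difference is the Rfx6-/- mean minus the control mean on that scale. A gene is said to rise or fall only where the Benjamini-Hochberg adjusted p of the moderated test in limma, over all 23288 genes, is under 0.05. The level of 1 gene cannot be set against that of another, because probes differ in brightness. The share of probes above background was 57.6% to 67.2% per array, the arrays came from 1 slide and 1 scan, and they correlated at 0.983 to 0.995 within a group and at 0.968 to 0.987 between groups. On that slide control array 1 and mutant arrays 2, 3 and 4 lay in row 1, and control arrays 2, 3 and 4 and mutant array 1 in row 2, so row nearly follows genotype. The Rfx6 probe itself read -2.94, -2.93, -2.99 and -3.75 on control arrays 1 to 4 and -2.33, -3.37, -3.11 and -2.25 on Rfx6-/- arrays 1 to 4, a difference of 0.39 (SE 0.29, limma adjusted p = 0.507), so it does not check the labels. The hormone genes of enteroendocrine cells, which need Rfx6, did separate the groups: 8 of 10 fell, and the mean level of the 10 was 2.16 to 2.49 on the control arrays and -2.59 to -2.29 on the Rfx6-/- arrays. Small intestine identity was present in both groups, with a mean level of 10 absorptive enterocyte genes of 6.06 to 6.40 in controls and 5.88 to 6.13 in the mutants.

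In the Rfx6-/- intestine 18 of the 95 tested members fell and 9 rose, while 68 did not pass the test. That is 28.4% of the tested members, beside 4.63% of all genes tested (2.36% lower, 2.27% higher). The groups did not overlap in 42 of the 95 members, beside 14.3% of all genes tested. The median difference over the 95 members was -0.17, and over all genes -0.05. Differences of the falling members lay between -0.93 and -0.53, or 1.45-fold to 1.90-fold lower, and none of the 18 reached 2-fold. Those of the 9 rising members lay between 0.79 and 7.12 log2 units. Of these 9, Sult1c2, Cyp2b10, Cyp11a1, Cyp2d37-ps and Cyp27a1 entered only through the mutant arrays, where they are high, so their differences are taken against control signals partly or wholly not above background; the other 4 ranged from 0.79 (Cyp4v3) to 3.27 (Gsta4). In bulk tissue fewer cells of a type and less RNA per cell cannot be told apart.

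**Figure D1:**
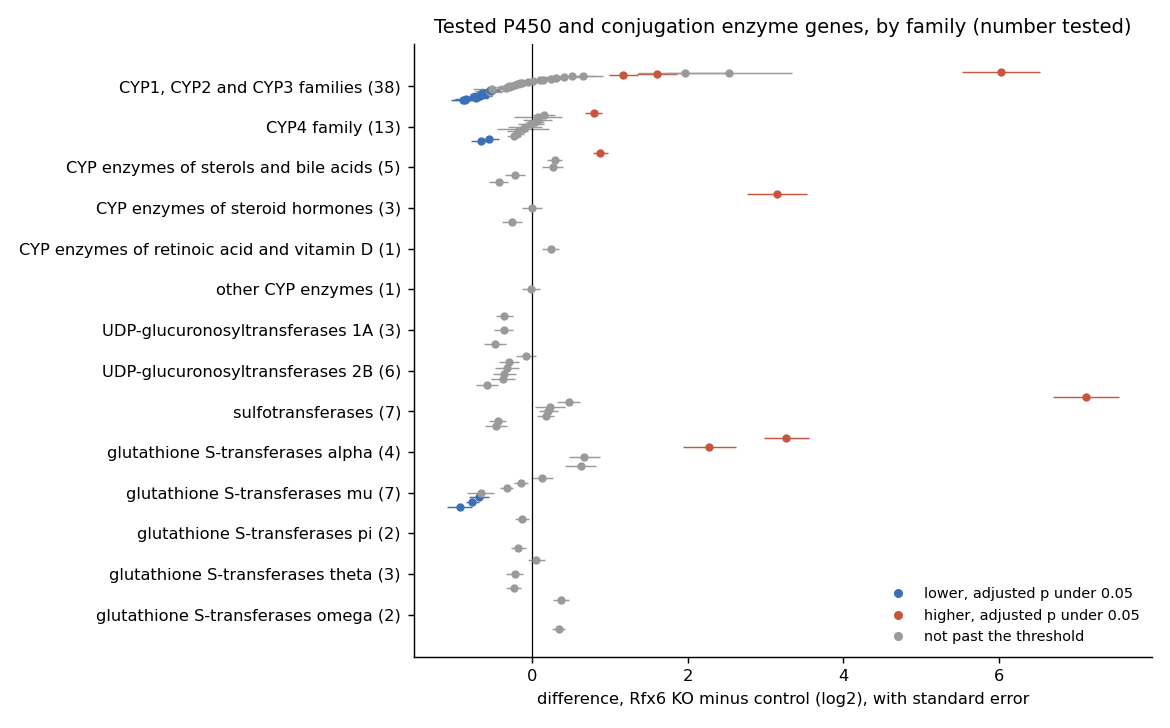
Difference between Rfx6-/- and control arrays (log2 units, horizontal axis, with its standard error) for each of the 95 tested members, grouped by enzyme family with the number tested in brackets. Blue points fell, red points rose and grey points did not pass the test; the blue points sit between -0.93 and -0.53, and the red points reach 7.12.

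Among the oxidising enzymes, the CYP1, CYP2 and CYP3 families act mostly on foreign compounds, arachidonic acid and steroids. These families counted 58 genes, 38 of them tested, with 13 lower and 3 higher in the mutants. The falls came from 3 gene clusters: 6 of 12 tested Cyp2c genes (chromosome 19, 39116674 to 44079594 on mm9), 4 of 9 tested Cyp2d genes (chromosome 15, 82204377 to 82620634) and 3 of 5 tested Cyp2j genes (chromosome 4, 95712305 to 96294231). In the Cyp2c cluster 9 of 12 differences lay below 0, and in the Cyp2j cluster all 5 did. Probes of neighbouring genes can share target sequence, so 4 of the 60-base probes behind the results are printed from the array annotation, with their mm9 positions, to show what was read. Each lies in exons of its gene, starting at base 194 (Gsta4), 895 (Cyp2d12), 1230 (Cyp2c29) or 395 (Gstm7) of the transcript it was designed on, and all but that of Cyp2c29 cross an intron.

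Gsta4, chr9:78046172-78047344 (+ strand): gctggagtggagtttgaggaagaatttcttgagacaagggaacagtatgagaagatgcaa
Cyp2d12, chr15:82388259-82388501 (+ strand): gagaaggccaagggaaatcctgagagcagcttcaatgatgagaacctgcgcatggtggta
Cyp2c29, chr19:39403642-39403701 (+ strand): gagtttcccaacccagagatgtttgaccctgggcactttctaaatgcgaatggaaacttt
Gstm7, chr3:107732073-107733247 (- strand): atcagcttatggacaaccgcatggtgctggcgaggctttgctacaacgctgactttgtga

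Each tested member's probe was set against every other's, 4465 pairs in all, in the best ungapped alignment of at least 30 bases. In this comparison 6 pairs were identical at 75% or more of the aligned bases, and 5 of these were within 1 subfamily. Probes were not set against the transcripts of other members, so it cannot show that the remaining probes are free of signal from related genes. Among genes that fell, Cyp2c29 and Cyp2c37 matched at 27 of 31 bases and Cyp2c37 and Cyp2j13 at 31 of 40. Signal shared between such probes cannot be separated.

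In the Cyp2c cluster, whose enzymes turn arachidonic acid into epoxides and hydroxylated products and act on drugs, Cyp2c54 read 1.31, 1.35, 1.07 and 1.02 on control arrays 1 to 4 and 0.35, 0.11, 0.74 and 0.67 on Rfx6-/- arrays 1 to 4. It fell by 0.72 log2 units (SE 0.15, n = 4 arrays a group, limma adjusted p = 0.0343). This fall rests on 1 of 3 probes of Cyp2c54, and each of the others was above background on 0 arrays. Cyp2c68 read 3.05, 2.87, 2.67 and 2.74 in controls and 2.02, 1.98, 2.31 and 2.29 in mutants, with a difference of -0.68 (SE 0.12, adjusted p = 0.0139). Both genes were lowest on mutant array 2 and nearest to the controls on mutant arrays 3 and 4, with no overlap between groups. Cyp2c29, an arachidonic acid epoxygenase, read 3.17, 3.11, 2.85 and 2.84 against 2.23, 2.11, 2.52 and 2.53, a difference of -0.65 (SE 0.13, adjusted p = 0.0268). Cyp2c39 read 0.86, 0.73, 0.54 and 0.51 against -0.13, -0.28, 0.23 and 0.20, a difference of -0.66 (SE 0.14, adjusted p = 0.0329). In both, control 1 was highest and mutant 2 lowest. Cyp2c37 read 0.20, 0.23, -0.15 and -0.06 against -0.82, -0.83, -0.44 and -0.34 (-0.66, SE 0.14, adjusted p = 0.0377), its second probe gave -0.12, and the mean of both gave -0.39, not past the test. Cyp2c67 read 4.89, 4.77, 4.57 and 4.56 against 3.96, 3.88, 4.24 and 4.29, a difference of -0.60 (SE 0.12, adjusted p = 0.0305). The remaining 6 tested Cyp2c genes did not pass: Cyp2c23 had a difference of -0.54, Cyp2c55 of -0.33, Cyp2c70 of -0.30, Cyp2c38 of 0.01, Cyp2c66 of 0.41 and Cyp2c65 of 0.51. Cyp2c65 and Cyp2c66, named after their values were seen, ran the other way on part of the mutants: Cyp2c65 read 2.07, 0.76, 0.73 and 1.62 on Rfx6-/- arrays 1 to 4 against 0.47 to 1.03 in controls (adjusted p = 0.385). Cyp2c66 read 2.24, 1.04, 1.13 and 2.08 against 0.91 to 1.46 (adjusted p = 0.466). Both were high on mutant arrays 1 and 4 and inside the control range on arrays 2 and 3.

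The Cyp2d genes encode enzymes that oxidise basic amine drugs. Cyp2d12 read 2.49, 2.29, 2.04 and 2.03 on control arrays 1 to 4 and 1.18, 1.05, 1.51 and 1.58 on the mutant arrays, a difference of -0.88 log2 units (SE 0.15, n = 4 arrays a group, limma adjusted p = 0.0146). Cyp2d11 read 4.13, 3.98, 3.61 and 3.72 against 2.98, 2.68, 3.18 and 3.16, a difference of -0.86 (SE 0.15, adjusted p = 0.0155). Both gave a gap between the lowest control and the highest mutant array and were lowest on mutant array 2. Cyp2d26 read 6.01, 5.82, 5.49 and 5.56 against 4.78, 4.61, 5.06 and 5.07, a difference of -0.84 (SE 0.15, adjusted p = 0.0158). Cyp2d22 read 0.40, 0.26, -0.06 and -0.08 against -0.62, -0.89, -0.38 and -0.39, a difference of -0.70 (SE 0.15, adjusted p = 0.039). In all 4 the highest array was control 1 and controls 3 and 4 were the lower pair. The one rise in the cluster was Cyp2d37-ps, a pseudogene, which was above background on 3 of 4 control arrays and read -3.40, -3.75, -3.55 and -4.00 in controls and -1.46, -1.97, -2.77 and -2.06 in mutants, a difference of 1.61 (SE 0.26, adjusted p = 0.00969). Of the other 4 tested, Cyp2d13 (-0.54), Cyp2d40 (-0.52) and Cyp2d34 (-0.19) lay below 0 and Cyp2d10 (0.66) above, none past the test. The second probe of Cyp2d34 gave 2.23 (adjusted p = 0.0524 over all probes), so its direction is not settled.

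The Cyp2j enzymes make epoxides of arachidonic acid, and Cyp2j6 is a form known from the gut. Cyp2j6 read 2.67, 2.51, 2.16 and 2.25 in controls and 1.86, 1.43, 1.87 and 1.82 in mutants, a difference of -0.65 log2 units (SE 0.15, n = 4 arrays a group, limma adjusted p = 0.0417). Cyp2j8, whose array name marks it as a pseudogene, read 2.82, 2.61, 2.33 and 2.46 against 2.06, 1.85, 2.11 and 2.06, a difference of -0.54 (SE 0.12, adjusted p = 0.0394). Neither gene overlapped between groups, and mutant array 2 was the lowest for both. Cyp2j13 read 0.69, 0.46, 0.21 and 0.27 against -0.15, -0.31, -0.03 and -0.01 on its brightest probe, a difference of -0.53 (SE 0.12, adjusted p = 0.0476). Its other probes, which read other places in the transcript, gave 0.14 and 0.62, so this fall rests on 1 of 3 probes, and with the mean of the 3 probes the difference was 0.077 (adjusted p = 0.755). Cyp2j7 (-0.13) and Cyp2j9 (-0.16) were below 0 and did not pass. The probes of Cyp2j7 and Cyp2j8 matched at 32 of 39 aligned bases. The second probe of Cyp2j8 was above background on 0 arrays.

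**Figure D2:**
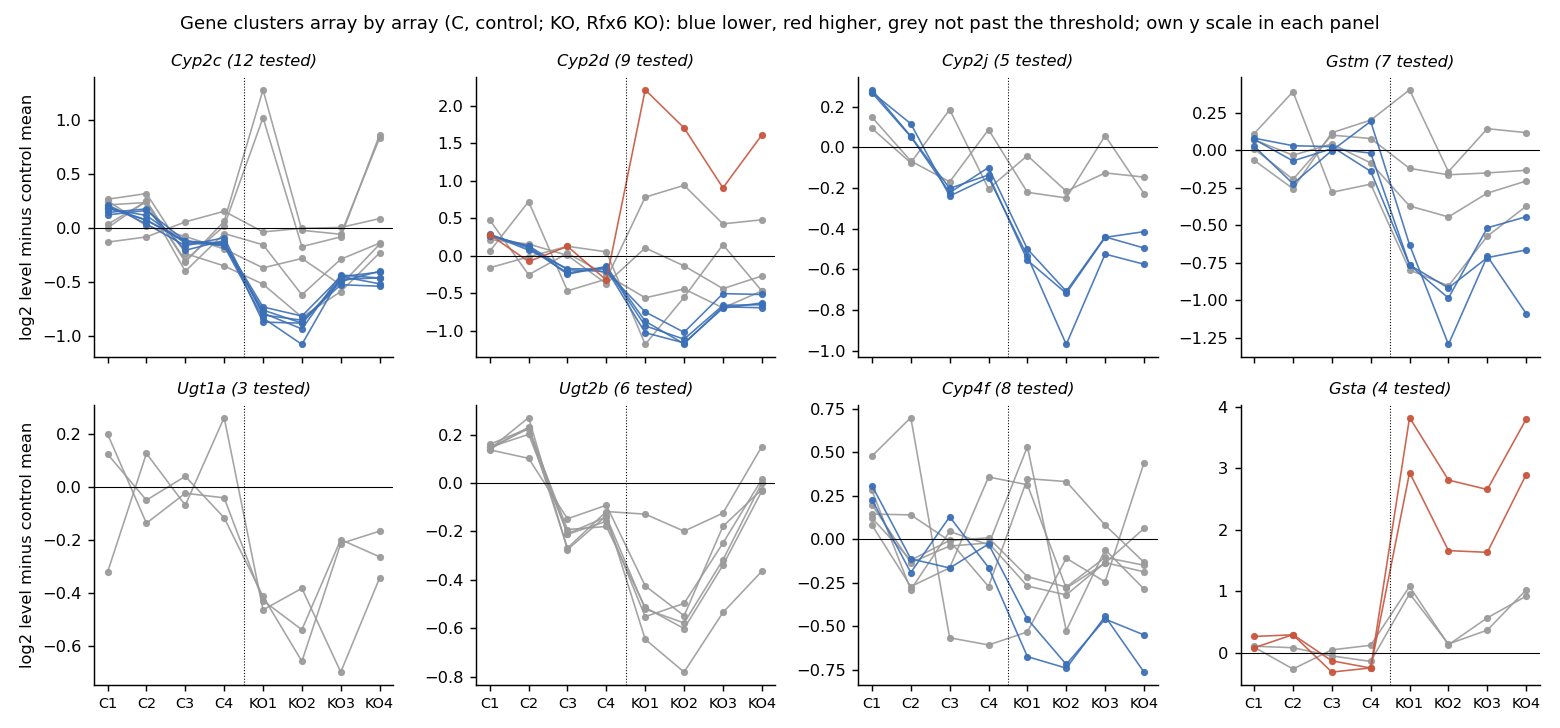
Levels of the tested genes of 8 subfamilies on each array (log2, minus the control mean of the gene; C1 to C4 control, KO1 to KO4 Rfx6-/-; each panel has its own vertical scale). Blue lines are genes that fell, red lines genes that rose and grey lines genes that did not pass the test. In 17 of the 18 members that fell the lowest mutant array was KO2, and in 15 the highest control array was C1. The same counts were not made over all genes.

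The other rises among the foreign-compound P450 genes were Cyp2b10 and Cyp2s1. Cyp2b10, the classical target of the nuclear receptor Nr1i3 in liver, passed the background test on 0 of 4 control arrays, where it read -7.10, -6.33, -6.99 and -6.44, and was above it on all 4 mutant arrays, where it read -0.22, -0.32, -2.35 and 0.17. Against the lowest signal that was above background on the control arrays this is at least 15.1-fold higher; the measured means were -6.71 ± 0.39 and -0.68 ± 1.13 (SD, n = 4 a group; limma adjusted p = 3.59e-04). Mutant array 3 lay well below the other 3, and still far above every control array. Of the other 4 Cyp2b genes none was tested, Cyp2b19 being above background on 5 of 8 arrays, Cyp2b9 on 1, and Cyp2b13 and Cyp2b23 on 0. Cyp2s1, a P450 of surface epithelia that Ahr can induce, read 3.18, 2.74, 2.92 and 3.02 in controls and 4.52, 3.92, 3.71 and 4.39 in mutants, a difference of 1.17 (SE 0.19, adjusted p = 0.00977), or 2.25-fold. It was highest on mutant arrays 1 and 4, and the lowest mutant array lay above the highest control.

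Cyp2a4 and Cyp2f2, also named after their values were seen, were high mainly on part of the mutant arrays and did not pass. Cyp2f2, a naphthalene-oxidising enzyme of airway epithelium, read 1.07, 1.23, -1.41 and -2.57 on Rfx6-/- arrays 1 to 4 against -3.49 to -2.21 in controls (difference 2.53, adjusted p = 0.127). Cyp2a4, a testosterone hydroxylase, read -0.98, -0.79, -3.16 and -3.52 against -4.28 to -3.82 (difference 1.97, adjusted p = 0.111). Both were highest by far on mutant arrays 1 and 2, with arrays 3 and 4 nearer to the controls. Genes of stratified epithelium, such as that of the forestomach and oesophagus, were read on the same arrays, and part of them were highest on mutant arrays 1 and 2: Krt5 read 1.13, 2.12, -0.76 and -1.92 on mutant arrays 1 to 4 and -2.92 to -2.64 in controls (adjusted p = 0.0716) and Krt4 0.25, 1.05, -2.69 and -3.95 (adjusted p = 0.0687). Krt4 was above background on 0 control arrays, and Sprr3, which was not tested, read -0.61, 0.37, -4.15 and -6.22 on the mutant arrays and was above background on 3 of them and on 0 controls. Krt6a read -1.55, -0.62, -2.80 and -3.76 on the mutant arrays against -4.47 to -1.68 in controls. Trp63, the defining factor of such epithelium, differed by -0.14 and read 2.87 to 3.00 on the mutant arrays against 3.00 to 3.10 in controls, and Krt14 differed by -0.29; neither passed. Of the 8 genes of that list 6 were tested and 1 rose (Krt13), the mean level of the list ran from -1.69 to -0.84 in controls and from -1.06 to 1.09 in mutants, and Dsg3 was above background on 0 arrays. The part of such tissue in these 2 members was not tested.

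Cyp1a1, the standard readout of Ahr activity, was above background on 1 control and 0 mutant arrays and Cyp1a2 on 0, while Cyp1b1 had a difference of 0.24 (SE 0.13, adjusted p = 0.354). Of the 8 Cyp3a genes, which include the major drug-oxidising P450s of adult liver and gut, only Cyp3a13 (-0.26, SE 0.09, adjusted p = 0.162) and Cyp3a11 (0.11, SE 0.10, adjusted p = 0.593) were bright enough to test, and neither passed.

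In the CYP4 family, whose enzymes hydroxylate the far end of fatty acid chains, 13 of 20 genes were tested, with 2 lower and 1 higher. Cyp4f14, which acts on leukotrienes and the side chain of vitamin E, read 0.16, -0.26, 0.06 and -0.23 in controls and -0.74, -0.81, -0.51 and -0.83 in mutants, a difference of -0.66 log2 units (SE 0.12, n = 4 arrays a group, limma adjusted p = 0.0206). Cyp4f16 read 2.54, 2.12, 2.07 and 2.21 against 1.78, 1.52, 1.78 and 1.69, a difference of -0.55 (SE 0.12, adjusted p = 0.0377). The mutant arrays of both lay below every control array, and the differences of all 8 tested Cyp4f genes but Cyp4f39 lay below 0. Cyp4v3, a fatty acid hydroxylase, rose: it read -2.60, -2.56, -2.47 and -2.46 in controls and -1.42, -1.82, -1.84 and -1.83 in mutants, a difference of 0.79 (SE 0.11, adjusted p = 0.00518). Mutant array 1 was apart from the other 3, which nearly coincided. The Ppara-inducible Cyp4a genes were little measured, with 3 of 8 tested and differences of -0.19 (Cyp4a31), 0.04 (Cyp4a10) and 0.07 (Cyp4a12b). These are values of the brightest probe; the other 2 probes of Cyp4a10 gave -0.54 and -1.60, the last with an adjusted p of 0.0431 over all probes.

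Among P450 enzymes of sterols and bile acids, Cyp27a1, the mitochondrial enzyme that oxidises the sterol side chain, rose. It was above background on 2 of 4 control arrays and read -4.08, -4.35, -4.32 and -4.40 in controls and -3.52, -3.48, -3.32 and -3.29 in mutants, a difference of 0.88 (SE 0.10, adjusted p = 0.00192). Groups were apart, but the gene was dim on every array. With normexp background correction in place of the scanner's own the difference was 0.30, still past the test. The same change took the differences of other risen members with dim controls to 5.45 (Sult1c2), 2.90 (Cyp2b10), 1.87 (Cyp11a1), 0.80 (Cyp2d37-ps) and 0.51 (Cyp4v3), all still past it. Cyp51 of cholesterol synthesis (-0.43, SE 0.12, adjusted p = 0.0954), Cyp46a1 (-0.22), Cyp7b1 (0.26) and Cyp39a1 (0.29), which hydroxylate cholesterol or its oxidised forms, did not pass. Cyp7a1, the rate-limiting enzyme of bile acid synthesis in liver, was above background on 0 arrays and Cyp8b1 on 1.

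Of the P450 enzymes of steroid hormones 3 of 6 were tested and 1 rose, Cyp11a1, which cleaves the side chain of cholesterol to pregnenolone and so begins steroid hormone synthesis. It was above background on 3 of 4 control arrays and read -4.55, -5.11, -3.18 and -3.88 in controls and -0.81, -0.69, -1.06 and -1.58 in mutants, a difference of 3.15 (SE 0.39, adjusted p = 0.00322). The lowest mutant array lay well above the highest control. The later P450 enzymes of the pathway were not called higher with it: Cyp17a1 differed by 0.00 (adjusted p = 0.997) and Cyp21a1 by -0.25, and Cyp11b1, Cyp11b2 and Cyp19a1 were above background on 1, 0 and 1 arrays. Of 6 genes of adrenal and gonadal steroid cells 5 were tested and 0 passed in limma (2 at an unadjusted p under 0.05), with a mean list level of -1.08 to -0.77 in controls and -0.74 to -0.21 in mutants; Hsd3b1 had 1.78 (SE 0.42, adjusted p = 0.0526), Star -0.06 and Nr5a1 0.04, and Mc2r was above background on 0 arrays. Of the enzymes of retinoic acid and vitamin D only Cyp26b1, which breaks down retinoic acid, was tested (0.24, SE 0.11, adjusted p = 0.267). Cyp20a1, a P450 without an assigned substrate, differed by -0.02 (SE 0.12, adjusted p = 0.957).

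Among the conjugating enzymes, no UDP-glucuronosyltransferase passed the test, with 3 of 3 Ugt1a and 6 of 7 Ugt2b genes tested, though all 9 differences lay below 0. In limma 7 of the 9 had an unadjusted p under 0.05, beside 19.9% of all genes tested. Some of the 9 probes may share signal, as given below, so these are not 9 independent readings. In the Ugt1a locus (chromosome 1, 89952780 to 90116573 on mm9), whose enzymes glucuronidate phenols and bilirubin, the groups did not overlap for any of the 3 probes used. The groups also did not overlap in 14.3% of all genes tested. The probes of Ugt1a6a (start 90116514) and Ugt1a6b (start 90115493) lie close together at one end of the locus, so they are not taken as readings of separate genes. Ugt1a6b read 6.24, 5.90, 6.02 and 6.00 in controls and 5.61, 5.50, 5.84 and 5.78 in mutants (-0.36, SE 0.11, adjusted p = 0.105); its other probe (start 90004249) gave -0.05. Ugt1a6a had a difference of -0.47 (SE 0.14, adjusted p = 0.101) and Ugt1a10 of -0.36 (SE 0.12, adjusted p = 0.137). In the Ugt2b cluster (chromosome 5, 87318849 to 87839404), whose enzymes act on steroids and bile acids, Ugt2b35 came nearest to the threshold. It read 0.20, 0.34, -0.21 and -0.07 against -0.58, -0.72, -0.47 and -0.30, a difference of -0.58 (SE 0.14, adjusted p = 0.0558). The other 5 ranged from -0.37 (Ugt2b5) to -0.08 (Ugt2b34); the probes of Ugt2b5 and Ugt2b37 matched at 46 of 55 aligned bases.

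Of 17 sulfotransferase genes 7 were tested and 1 rose. Sult1c2, a cytosolic sulfotransferase, was above background on 2 of 4 control arrays and read -4.91, -4.50, -3.96 and -3.27 in controls and 3.49, 2.39, 2.31 and 3.65 in mutants. The difference was 7.12 log2 units (SE 0.42, n = 4 arrays a group, limma adjusted p = 4.63e-05). Mutant arrays 1 and 4 were above arrays 2 and 3, and the SD was 0.71 in both groups. The other 6 did not pass: Sult1b1, an intestinal form that sulfates thyroid hormone, -0.44 (SE 0.11, adjusted p = 0.0699); Sult2b1, which sulfates cholesterol, -0.46; the phenol sulfotransferase Sult1a1 0.47; Sult1d1 0.21; Sult4a1 0.17; and Sult5a1 0.23. None of the 6 Sult2a genes, the hydroxysteroid sulfotransferases of liver, was tested. Sult1c1, the neighbour of Sult1c2 in name, was above background on 0 arrays.

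The glutathione S-transferases split by class: 2 of 4 tested alpha-class genes rose and none fell, while 3 of 7 tested mu-class genes fell and none rose. In the alpha class, Gsta4, which detoxifies aldehydes of lipid peroxidation, read -1.08, -0.87, -1.30 and -1.41 in controls and 2.66, 1.64, 1.49 and 2.63 in mutants, a difference of 3.27 log2 units (SE 0.28, n = 4 arrays a group, limma adjusted p = 4.73e-04), or 9.64-fold. Gsta1 read 3.67, 3.69, 3.09 and 3.16 against 6.33, 5.06, 5.03 and 6.30, a difference of 2.28 (SE 0.34, adjusted p = 0.00754), or 4.85-fold. Both were higher on mutant arrays 1 and 4 than on 2 and 3, and no mutant array came near the control range. Gsta2 read 4.79, 4.77, 4.63 and 4.54 against 5.65, 4.83, 5.05 and 5.71 (0.62, SE 0.20, adjusted p = 0.122), and Gsta3 read 1.19 to 1.58 against 2.53, 1.58, 2.02 and 2.37 (0.67, SE 0.20, adjusted p = 0.102). These did not pass, but their groups did not overlap, beside 14.3% of all genes tested, and arrays 1 and 4 were again the highest. The probes of Gsta1 and Gsta2 matched at 46 of 50 aligned bases, so the signals of the pair cannot be fully separated. The genes of Gsta1, Gsta2 and Gsta4 lie on chromosome 9 (78046172 to 78178915 on mm9) and that of Gsta3 on chromosome 1.

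**Figure D3:**
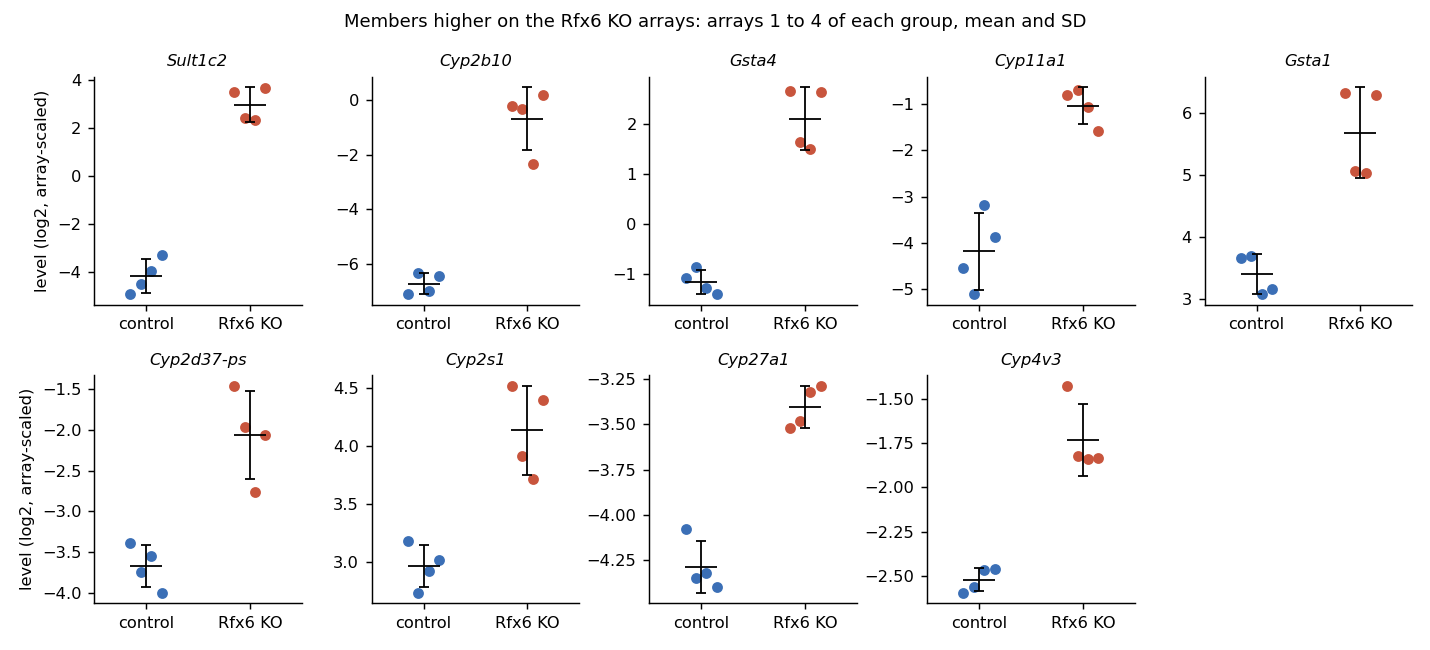
Levels of the 9 members that rose (log2, scaled to the array's 75th percentile; 4 control and 4 Rfx6-/- arrays as points, in the order of their numbers; the bar is the mean with its SD). Every mutant point lies above every control point in all 9 panels, but the genes were picked by the same comparison. The groups did not overlap in 14.3% of all genes tested. Cyp2b10 was above background on 0 control arrays.

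In the mu class, 6 of whose 7 probes map together on chromosome 3 (107701101 to 107843861 on mm9), Gstm3 fell on its brightest probe. It read 3.74, 3.49, 3.71 and 3.91 in controls and 3.08, 2.42, 3.01 and 2.63 in mutants, a difference of -0.93 log2 units (SE 0.16, n = 4 arrays a group, limma adjusted p = 0.0145). Its second probe gave -0.35, the mean of both -0.64, and the call is lost with the slide row as a block (adjusted p = 0.0599). Gstm6 read 1.48, 1.33, 1.42 and 1.39 against 0.64, 0.49, 0.69 and 0.74, a difference of -0.76 (SE 0.08, adjusted p = 0.00152). Its standard error was the smallest of the 3 genes, and its highest mutant array lay well under its lowest control. Gstm7 read -0.68, -0.73, -0.73 and -0.90 against -1.52, -1.74, -1.27 and -1.20, a difference of -0.68 (SE 0.13, adjusted p = 0.0204). Gstm5 (-0.66, SE 0.17, limma adjusted p = 0.0735) and Gstm4 (-0.33, SE 0.08, limma adjusted p = 0.0608) did not pass although their groups did not overlap. Groups did not overlap in 14.3% of all genes tested. Gstm2 (-0.14) was near 0. Gstm1 gave 0.13 on its brightest probe, which maps to chromosome 5. Its probe on chromosome 3 gave 0.42 (limma adjusted p = 0.119 over all probes), and neither passed. The pi-class Gstp1 (-0.17, SE 0.09, adjusted p = 0.345) and Gstp2 (-0.13) and the theta-class Gstt1 (-0.23, SE 0.10, adjusted p = 0.224), Gstt3 (-0.22) and Gstt2 (0.05) did not pass. Both omega-class genes, which reduce dehydroascorbate, lay higher in the mutants without overlap and short of the threshold: Gsto1 read 6.62, 6.31, 6.38 and 6.43 against 6.96, 6.73, 6.69 and 6.86 (0.37, SE 0.10, adjusted p = 0.0716), and Gsto2 differed by 0.34 (SE 0.09, adjusted p = 0.0625).

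All 27 calls kept their direction when any 1 array was left out, but the number of falling members moved by over 1.5 times, from 18 to 5, 10, 11 and 11 without control array 1, 2, 3 or 4 and to 4 and 7 without mutant array 1 or 2; the number that rose stayed between 9 and 11. With the slide row as a block 12 fell and 9 rose, the calls of Gstm3, Cyp2j8, Cyp2j6, Cyp4f16, Cyp2c54 and Cyp2d22 being lost. Within row 1 the median difference of the 18 falling members was -0.85 and within row 2 -0.71, and of the 9 rising members 1.80 and 3.02, each row holding 1 array of one group and 3 of the other.

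Markers of other cell types moved with these groups. Of 11 stomach epithelium genes, all tested, 9 rose; their mean level was -4.67 to -3.30 on control arrays and 1.51 to 2.22 on mutant arrays, and Gkn2, Atp4a, Cblif and Cldn18 were above background on 0 control arrays. Beside the falls, 3 of 10 absorptive enterocyte genes fell, the fatty acid carrier Fabp1 (-0.65), the apolipoprotein Apoa4 (-0.60) and lactase, Lct (-0.74), while the brush border gene Vil1 differed by -0.10. Of 12 liver genes 3 rose and 1 fell, with a mean level of 0.93 to 2.13 in controls, highest on control 1, and of 1.66 to 2.33 in mutants. Alb read 1.75, -1.40, -3.16 and -2.92 in controls and 1.95, -0.62, 0.73 and -0.93 in mutants. Control 1, highest in 15 of the 18 falling members, was the highest control for Alb. It was also highest for the list means of exocrine pancreas (0.93), erythroid cells (2.60) and adrenal and gonadal steroid cells (-0.77). For the stomach, stratified epithelium and kidney tubule lists control 1 was the lowest control. For the absorptive enterocyte, enteroendocrine, smooth muscle, endothelium and macrophage lists it was neither. Among mutants Alb and the exocrine pancreas list were lowest on array 4. The erythroid list (1.22) and 17 of the 18 falling members were lowest on array 2. Genes of exocrine pancreas (7 tested), smooth muscle (8) and endothelium (5) gave 0 calls in limma, and 0 at an unadjusted p under 0.05; those of macrophages (6) and erythroid cells (5) gave 0 calls, with 2 and 3 at an unadjusted p under 0.05. Of 4 kidney tubule genes 1 rose, Lrp2. The part of any of these tissues in the members' changes was not tested.

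**Figure D4:**
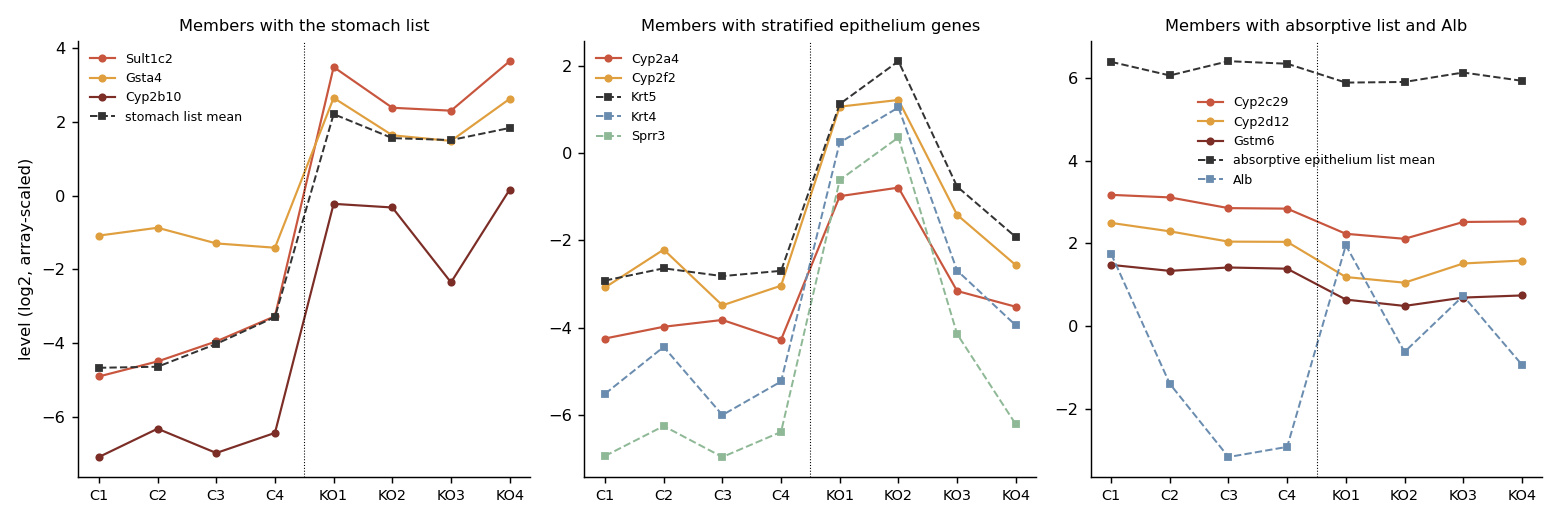
Levels on each array (log2, array-scaled; C1 to C4 control, KO1 to KO4 Rfx6-/-) of members (solid lines) beside marker genes or list means (dashed lines). Left, Sult1c2, Gsta4 and Cyp2b10 with the mean of 11 stomach genes, all higher on every mutant array. These members were picked because they rose in the same comparison. Centre, Cyp2a4 and Cyp2f2 with Krt5, Krt4 and Sprr3, high on KO1 and KO2 and picked after their values were seen. Not shown from the same list are Krt13, Krt6a, Dsg3, which was not above background, and Trp63 and Krt14, whose means were not higher in the mutants. Right, Cyp2c29, Cyp2d12 and Gstm6 with the mean of 10 absorptive enterocyte genes and Alb, which within each group is highest on C1 and KO1.

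Promoters were read from RefSeq (GRCm38.p6) as 250 bases before and 50 after each gene's start, and 73 of the 95 tested members had one. A set of 5 short motifs was searched on both strands; matches of different motifs may overlap. The promoters of 4 members that moved are printed 5′ to 3′ on the gene's strand, with the motifs CAAAGTCCA (HNF4) and GCGTG or its reverse CACGC (xenobiotic response element core) in capitals.

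Cyp2c67, chr19:39648993-39649292 (- strand): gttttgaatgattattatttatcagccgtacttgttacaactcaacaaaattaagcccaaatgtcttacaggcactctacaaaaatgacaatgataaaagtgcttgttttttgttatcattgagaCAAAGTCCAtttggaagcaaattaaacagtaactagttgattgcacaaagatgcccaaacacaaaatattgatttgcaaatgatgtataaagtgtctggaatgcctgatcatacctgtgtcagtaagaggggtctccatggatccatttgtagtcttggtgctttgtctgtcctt
Cyp2c68, chr19:39741052-39741351 (- strand): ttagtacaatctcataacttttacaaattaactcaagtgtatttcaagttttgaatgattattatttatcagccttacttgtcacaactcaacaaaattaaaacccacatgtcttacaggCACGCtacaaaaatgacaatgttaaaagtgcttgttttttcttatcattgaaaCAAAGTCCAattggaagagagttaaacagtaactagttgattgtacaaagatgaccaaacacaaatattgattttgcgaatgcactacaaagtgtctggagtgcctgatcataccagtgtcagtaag
Cyp2b10, chr7:25897408-25897707 (+ strand): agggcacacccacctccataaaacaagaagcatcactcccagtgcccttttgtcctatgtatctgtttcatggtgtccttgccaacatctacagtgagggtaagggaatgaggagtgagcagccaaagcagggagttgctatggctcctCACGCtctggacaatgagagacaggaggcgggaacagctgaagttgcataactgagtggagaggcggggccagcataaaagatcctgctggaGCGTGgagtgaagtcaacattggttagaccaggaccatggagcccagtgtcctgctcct
Gsta1, chr9:78230419-78230718 (+ strand): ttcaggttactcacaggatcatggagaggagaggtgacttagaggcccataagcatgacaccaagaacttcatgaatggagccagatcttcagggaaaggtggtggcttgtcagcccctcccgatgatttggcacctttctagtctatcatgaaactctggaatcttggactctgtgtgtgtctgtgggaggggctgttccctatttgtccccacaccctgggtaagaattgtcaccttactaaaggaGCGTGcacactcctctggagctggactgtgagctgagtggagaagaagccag

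The HNF4 motif was present in 6 of 73 members (8.2%), Cyp2c65, Cyp2c67, Cyp2c68, Cyp2c70, Cyp3a11 and Sult1b1, and in 0.6% of all 27025 genes with a promoter. Cyp2c65, Cyp2c67, Cyp2c68 and Cyp2c70 belong to 1 gene cluster on chromosome 19, so these are not 6 independent readings. The motif was in 2 of 15 falling members with a promoter, the neighbouring Cyp2c67 and Cyp2c68, whose promoters resemble each other, and in 0 of 7 rising ones. GCGTG was present in 3 of 7 rising members (Cyp2b10, Cyp4v3 and Gsta1), 4 of 15 falling members, 30.1% of the 73 and 35.2% of all genes. The antioxidant response element core TGACNNNGC was in 0 of 7 rising and 3 of 15 falling members (Cyp2j6, Cyp4f14 and Gstm7), 12.3% of the 73 and 3781 of the 27025 genes. GTTGCC, a core that RFX factors can bind, was in 1 of 7 rising members (Cyp11a1) and 3 of 15 falling members (Cyp2d11, Cyp2j8 and Cyp4f16), 16.4% of the 73 and 14.1% of all genes. The GATA motif AGATAA was in 0 of 7 and 3 of 15 (Cyp2c29, Cyp2c39 and Gstm7), 16.4% of the 73 and 12.7% of all genes. A match describes the letters in this window and not a bound site.

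The genes that work with these enzymes were read from 6 lists of 104 genes, 95 of them tested, of which 9 fell and 13 rose (23.2%, beside 4.63% of all genes); their median difference was -0.07. The number that fell was 3 without control array 1 or 4 or without mutant array 1 or 2. Of 15 transcription factors that sense foreign compounds or drive these enzymes, 1 fell and 1 rose: the fatty acid receptor Ppara, which read 3.07, 2.67, 2.72 and 2.72 in controls and 2.18, 2.16, 2.42 and 2.32 in mutants (-0.53, SE 0.11, adjusted p = 0.033), and the Ahr repressor Ahrr, above background on 2 of 4 control arrays (0.50, SE 0.11, adjusted p = 0.0435; 0.053 and not past the test with normexp correction). Ahr (-0.03), Nr1i2 (-0.36), Nr1i3 (0.16), Hnf4a (-0.12), Nfe2l2 (-0.46) and its partner Keap1 (0.04) did not pass. Of 6 electron donors 2 fell, cytochrome b5 reductase Cyb5r3 (-0.77, SE 0.09, adjusted p = 0.00207) and the mitochondrial cytochrome b5 Cyb5b (-0.66, SE 0.07, adjusted p = 0.00161), while the main P450 reductase Por did not pass (-0.18). Of 14 tested cofactor genes 2 fell, Cth, which makes cysteine for glutathione (-0.81, SE 0.16, adjusted p = 0.0294), and Ggt1, which breaks glutathione down outside the cell (-0.46, SE 0.09, adjusted p = 0.024).

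Of 27 other tested oxidation and hydrolysis enzymes 6 rose and 3 fell. The rises were the carbonyl reductase Cbr3, which read -0.70, -0.77, -0.47 and -0.47 in controls and 2.66, 2.03, 1.85 and 2.63 in mutants (2.90, SE 0.19, adjusted p = 1.09e-04), the carboxylesterase Ces2b (2.25), the quinone reductase Nqo1 (1.87, SE 0.21, adjusted p = 0.00204), the aldo-keto reductase Akr1b8 (1.81), the epoxide hydrolase Ephx1 (1.06, or 0.56 with the mean of its probes) and the flavin monooxygenase Fmo1 (0.97). Nqo1 read -1.15, -1.11, -1.24 and -1.05 in controls and 1.25, 0.25, 0.40 and 1.03 in mutants. The falls were alcohol dehydrogenase Adh1 (-0.91, SE 0.19, adjusted p = 0.0331), Fmo4 (-0.60) and the retinaldehyde dehydrogenase Aldh1a1 (-0.53). Of 19 other conjugation enzymes Ugt8a, which makes galactosylceramide, and Mgst2 rose and Bpnt1, which clears the by-product of sulfation, fell. Ugt8a was above background on 0 control arrays and was at least 1.51-fold higher in mutants, with means of -5.89 and -4.01 (adjusted p = 0.00389); with normexp correction its difference was 0.32 and did not pass. Mgst2 differed by 0.69 (SE 0.09, limma adjusted p = 0.00438) and Bpnt1 by -0.45 (SE 0.09, limma adjusted p = 0.0278). With the mean of its probes Bpnt1 differed by -0.35 and did not pass. Of 14 tested transporters 4 rose and 0 fell (6 higher and 0 lower at an unadjusted limma p under 0.05): the basolateral conjugate pump Abcc3, which read -0.86, -1.08, -0.44 and -0.18 in controls and 1.68, 1.02, 0.66 and 1.44 in mutants (1.84, SE 0.26, adjusted p = 0.00612), the uptake carrier Slco4a1 (0.72) and the export pumps Abcc1 (0.48) and Abcc5 (0.37, or 0.21 and not past the test with the mean of its probes).

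Within the groups the arrays kept an order across members. Of the 9 rising members, mutant array 1 was highest in 5, array 4 in 3 and array 3 lowest in 7. Of the 18 falling members, mutant array 2 was lowest in 17, and control array 1 was highest in 15. Genes of different clusters shared this order, but genes of 1 cluster are not independent readings. The same counts were not made over all genes, so the order is not shown to be particular to these enzymes. The odd ones by slide row were control 1 and mutant 1. Gsta1, Gsta4, Cyp2s1 and Sult1c2, of 3 enzyme classes, all had mutant arrays 1 and 4 as their highest.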

How the data were processed

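Small intestine RNA of 8 samples, 4 control and 4 Rfx6-/-, was labelled with cyanine 3 from 100 ng, per the labels' protocols, and read with Agilent Feature Extraction 10.10.1.1, per the file headers. The deposited scanner files hold an intensity for each spot, already background-subtracted by the authors' software (per the file headers). The authors' series matrix holds an intensity per spot whose sorted values were the same on every array; its normalization is not stated, and it served as an alternative. Control spots (3671 of 62976 a file) and outlier spots were left out, spots of a probe were averaged, and log2 levels were centred on the array's 75th percentile (637 to 746 signal units). A probe was kept if well above background on all 4 arrays of a group (31681 of 55681), and the brightest stood for each gene: 186 probes for the members, 125 of them kept. Groups were compared with limma 3.58.1 in R 4.3.3, with a threshold of 0.05 after Benjamini-Hochberg adjustment; the code was tested on simulated data. The number of arrays limits the precision. Of 26 tested members with several passing probes 5 had probes that disagreed in sign. Names came from a RefSeq gene table, coordinates from the array files (mm9).

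Named are Rfx6, all members past the threshold, members above background in 1 group alone, the member with the smallest p of a family with no call, and partner genes past the threshold; other named genes were chosen after their values were seen. Members and lists were chosen with earlier results of these data known. Alternatives changed the background, normalization, filter, probe rule, gene names, blocks, weights and prior, and left out each array.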

Additional observations from a re-analysis of the deposited data

Results flagged for a closer look

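In 10 of 126 groups of 4 arrays (7.94%, where chance gives about 1 in 20) 1 array stood far from the other 3. Among the members, Cyp2j6 was low on Rfx6-/- array 2 (1.43, the others 1.82 to 1.87), Cyp4v3 was high on Rfx6-/- array 1 (-1.42, the others -1.84 to -1.82), Cyp20a1 was high on Rfx6-/- array 2 (-0.61, the others -0.79 to -0.77) and Gstp1 was high on control array 1 (4.37, the others 4.09 to 4.13). Among the partner genes, Ppara (3.07, the others 2.67 to 2.72), Fmo4 (-0.071, the others -0.32 to -0.29) and Fmo1 (-1.62, the others -2.14 to -2.08) were high on control array 1, Bpnt1 was high on Rfx6-/- array 3 (4.40, the others 4.10 to 4.13) and Slco4a1 was low on control array 2 (-0.91, the others -0.61 to -0.56). Rfx6 was low on control array 4 (-3.75, the others -2.99 to -2.93). Control array 1 holds 4 of the 10, all of them high.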

How the results depend on the processing

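All 27 called members kept their direction in each alternative that tested them, except Cyp2j13, which was 0.077 once its probes were averaged. Falling members numbered 18, and 1 with no filter on dim probes, 2 with a replicate block and 4 to 13 when 1 array was left out. Rising members numbered 9, and 4 with a filter on all 8 arrays, which leaves out 5 of them untested, 14 with array weights and 9 to 11 when 1 array was left out. Falling partner genes numbered 9, and 2 with no filter, 2 with the replicate block, 17 with array weights and 3 to 9 when 1 array was left out. Over all genes 550 fell and 529 rose, against 182 and 291 with no filter, 121 and 234 with the block, 1151 and 809 with array weights, and 216 to 554 and 334 to 506 when 1 array was left out. The share of tested members called stayed above that of all genes in each setting, from 6.99% against 1.31% with no filter to 42.1% against 8.42% with array weights. Quantile normalization moved the median of all genes from -0.05 to 0.0011. Replicate numbers did not pair the samples: same-numbered arrays had correlations of deviations of -0.05, -0.14, 0.06 and -0.36, and 0 of 8 arrays correlated best with its own number. The causes of these shifts were not tested. The 48 dim members have no estimate.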
